A study of Bos taurus with 16 samples.

Results

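HEG1, PALMD, GSN and ASAP3 are 4 genes of cell junctions and the actin cytoskeleton, followed here through RNA-Seq of superficial zone articular chondrocytes, the flat lubricin-secreting cells at the surface of joint cartilage. They are 4 of the 19454 bovine genes in the count table. HEG1 (ENSBTAG00000021396), PALMD (ENSBTAG00000017655) and ASAP3 (ENSBTAG00000012263) were taken by identifier, and GSN by its symbol, which belongs to ENSBTAG00000019915. They were chosen with results of these same libraries known. Which values entered the choice is not recorded, and it was taken to be the difference between shCreb5 and shScramble cells, which is therefore given as a description without a test.

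The cells came from the knees of 4 calves, 1 to 2 weeks old, and carried a lentiviral control shRNA (shScramble) or 1 shRNA (shCreb5) against Creb5, a transcription factor of the CREB/ATF family. After 5 days of selection in 0.8 µg/ml puromycin they were replated on low attachment plates in medium with serum for 48 hours. In condition A the medium held 100 ng/ml TGFα, a ligand of the EGF receptor, and in condition AB it held 100 ng/ml TGFα and 20 ng/ml TGFβ2. TGFα, puromycin selection and a lentiviral shRNA were thus common to all groups, and each combination of shRNA and condition gave 1 library per calf, 16 in all. The labels name a single Creb5 shRNA, so an effect of that sequence apart from CREB5 cannot be told apart from the loss of CREB5.

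Actin filaments are built, cut and capped by families of proteins that respond to calcium, phosphoinositides and small GTPases, and they are anchored to the membrane at cell junctions and focal adhesions. HEG1 is a transmembrane protein with EGF-like domains that recruits the CCM protein KRIT1 to endothelial junctions, and it is required for heart and vessel formation. GSN encodes gelsolin, a calcium-activated protein that severs and caps actin filaments and that also has a secreted plasma form. PALMD encodes palmdelphin, a mostly cytosolic relative of paralemmin, and ASAP3 encodes a GTPase-activating protein for Arf GTPases that acts at focal adhesions and stress fibers. In articular chondrocytes the organization of actin is known to go with cell shape and with the balance between a rounded cartilage-forming state and a spread, fibroblast-like one.

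Between 14710867 and 21853634 counts per library were assigned to genes, with a median of 19721435. CREB5, the target of the shRNA, fell short of its shScramble level in 8 of 8 pairs, with 94.4 ± 24.3 CPM (library-size-scaled counts, mean and SD, n = 4 calves) in shScramble and 65.3 ± 17.9 in shCreb5 cells in condition A, and 70.8 ± 11.8 and 36.3 ± 4.97 in condition AB. Symbols were at hand for 3159 of the 19454 genes. Of 11 chondrocyte markers 4 had an identifier, and their summed level was 15400 to 23300 CPM in the shScramble and 9280 to 23300 in the shCreb5 libraries of condition A, and 32500 to 65200 and 28800 to 62500 in those of condition AB. Much of this sum came from PRG4, which encodes lubricin, with a mean of 9496 CPM in condition A and 37780 in condition AB. PRG4 had at least 2460 CPM in each library. ACAN, COL2A1 and SOX9 were among the chondrocyte markers without an identifier. Of 8 endothelial markers TEK and VWF had an identifier. Their summed level was 8.25 to 14.7 CPM in the shScramble and 11.1 to 23.6 in the shCreb5 libraries of condition A, and 8.85 to 11.2 and 6.7 to 10.2 in those of condition AB. CD14 and CD68, the 2 of 7 macrophage and blood markers with an identifier, summed to 22.7 to 41.7 and 24 to 92.7 CPM in the shScramble and shCreb5 libraries of condition A, and to 14.6 to 34.2 and 12.2 to 30.4 in condition AB. In bulk RNA, fewer cells of a type and less RNA per cell cannot be told apart. No sequencing batch is assigned to libraries in the labels.

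HEG1 was highest in shScramble cells without TGFβ2 and lowest in shCreb5 cells with it. In condition A it had 66.4, 23.6, 42.4 and 57.1 CPM in the shScramble libraries of calves 1, 2, 3 and 4, and 54.2, 17.7, 29.7 and 31.7 CPM in their shCreb5 libraries. In condition AB the shScramble libraries had 36.1, 11.3, 17.9 and 20.9 CPM, and the shCreb5 libraries 17.1, 6.26, 11.3 and 12.2 CPM. Calf 1 was the highest and calf 2 the lowest in each of the 4 groups. The ranges of neighbouring groups overlapped because the calves differed, but within a calf the order of the 4 groups was the same in 4 of 4 calves. The smallest of these values rests on 116 counts.

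GSN was the gene that stood higher with shCreb5. In condition A it had 2190, 659, 549 and 782 CPM in the shScramble libraries of calves 1 to 4, and 3297, 850.4, 1273 and 2418 CPM in their shCreb5 libraries. In condition AB the levels of GSN were 901, 364, 371 and 323 CPM with shScramble and 1483, 459, 676 and 686 CPM with shCreb5. Calf 1 had the highest level in each group, and the ranges of all neighbouring groups overlapped. The order from shCreb5 in condition A, through shScramble in A and shCreb5 in AB, down to shScramble in AB held in 3 of 4 calves. In calf 3 the shCreb5 library of condition AB stood above the shScramble library of condition A. The counts sum all transcripts of a gene, and RefSeq (assembly ARS-UCD2.0) lists 8 transcripts for GSN against 1 for each of the other genes, so the cytoplasmic and the secreted form of gelsolin were not separated.

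PALMD was low without TGFβ2 and higher with it. Its levels in condition A were 10.9, 28.1, 27.8 and 35.3 CPM in the shScramble libraries of calves 1 to 4, and 10.1, 25.3, 13.8 and 21.4 CPM in their shCreb5 libraries. In condition AB they were 80.3, 65.6, 85.3 and 100.6 CPM with shScramble and 37.4, 41.4, 46.1 and 56.8 CPM with shCreb5. The shScramble libraries of condition AB lay above all shCreb5 libraries of AB, and these lay above all libraries of condition A, so that 3 levels did not overlap. The shScramble and shCreb5 libraries of condition A did overlap, although the order of the 4 groups was the same within 4 of 4 calves.

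ASAP3 varied least, by 2.29-fold between its lowest and highest library, where HEG1, GSN and PALMD varied by 10.6-fold, 10.2-fold and 9.95-fold. It had 28.8, 51.3, 43.2 and 43.2 CPM in the shScramble libraries of condition A in calves 1 to 4, and 24.5, 33.3, 26.8 and 22.4 CPM in their shCreb5 libraries. In condition AB the values of ASAP3 were 34.5, 42.3, 45.4 and 47.3 CPM with shScramble and 28.4, 32.7, 31.9 and 23.1 CPM with shCreb5. With TGFβ2 the shScramble and shCreb5 libraries did not overlap, and without it they did, since calf 1 was low with shScramble and calf 2 high with shCreb5. RefSeq places 2 uncharacterized genes over ASAP3, and strand-specific counting is not given in the sources used here, so reads of overlapping transcripts could be counted with it.

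**Figure D1:**
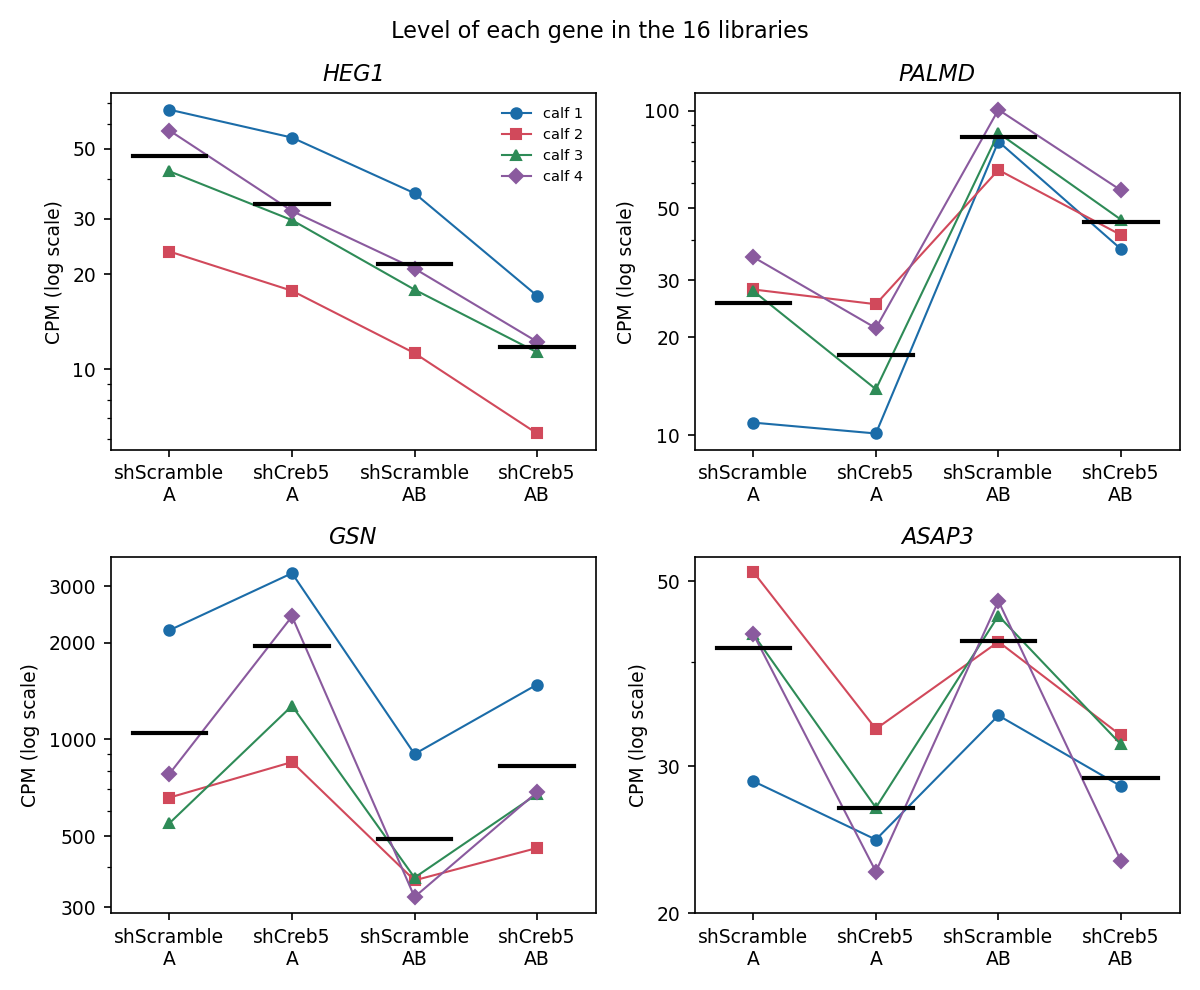
Each panel plots the level of 1 gene in CPM (log axis) in the 4 groups, with 1 line and symbol per calf and a black bar at the mean of a group (n = 4 calves). HEG1 steps down in the same order in every calf, from 66.4 to 17.1 CPM in calf 1, and PALMD reaches 65.6 to 100.6 CPM only in the shScramble libraries of condition AB.

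The study compared shCreb5 with shScramble within each condition, to find genes whose expression depends on Creb5. HEG1, PALMD and ASAP3 were lower and GSN was higher with shCreb5, each in 8 of 8 pairs of libraries of the same calf and condition. Over all 13372 genes with enough counts in the 16 libraries, 1.64% were lower in 8 of 8 pairs and 1.42% were higher. Since the genes are taken to have been chosen by this difference, nothing further is read from these counts. The shScramble and shCreb5 ranges were apart for 0 of the 4 genes in condition A, where 1.05% of all genes had ranges apart, and for PALMD and ASAP3 in condition AB, where 1.22% had. The log2 fold changes below come from edgeR's fit within a condition with the calf in the model, and each calf's own log2 ratio of CPM is given beside them.

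Without TGFβ2, HEG1 differed by -0.52 on the log2 scale with a standard error of 0.11, and its ratios ran from -0.85 in calf 4 to -0.29 in calf 1. That of ASAP3 was -0.62 (standard error 0.12), again largest in calf 4, at -0.94, and smallest in calf 1, at -0.23. PALMD had -0.50 (standard error 0.17). Its difference came mainly from calves 3 and 4, with -1.0 and -0.72, while calves 1 and 2 had -0.11 and -0.15. GSN had 0.95 (standard error 0.22), and its ratio was 1.63 in calf 4, 1.21 in calf 3, 0.59 in calf 1 and 0.37 in calf 2. For all 4 genes, calves 3 and 4 thus had larger differences than calves 1 and 2 in condition A. This split was named after the values were seen and was not compared with other genes. CREB5 itself had ratios of -0.53, -0.67, -0.43 and -0.53 in calves 1 to 4 in condition A. The part of the depth of the knockdown in the differences between calves was not tested.

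With TGFβ2, HEG1 differed by -0.84 (standard error 0.11), with ratios of -1.07, -0.835, -0.654 and -0.765 in calves 1 to 4. The split between the calves in condition A was thus not seen for HEG1 here. PALMD had -0.87 (standard error 0.10) and ranged from -1.10 in calf 1 to -0.67 in calf 2. Its calves lay closer together than without TGFβ2, where the SD of its ratios was 0.44 against 0.18 here. ASAP3 had -0.55 (standard error 0.14), from -1.03 in calf 4 to -0.28 in calf 1. GSN had 0.75 (standard error 0.14), from 0.34 in calf 2 to 1.09 in calf 4. As a mean over calves, shCreb5 cells of condition AB thus held 56.2% of the HEG1, 54.8% of the PALMD, 68.4% of the ASAP3 and 168% of the GSN level of shScramble cells. In condition A these values were 70%, 70.9%, 65% and 193%. CREB5 itself was at 51.5% in condition AB and 68.8% in condition A, so its own RNA was reduced further in AB.

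**Figure D2:**
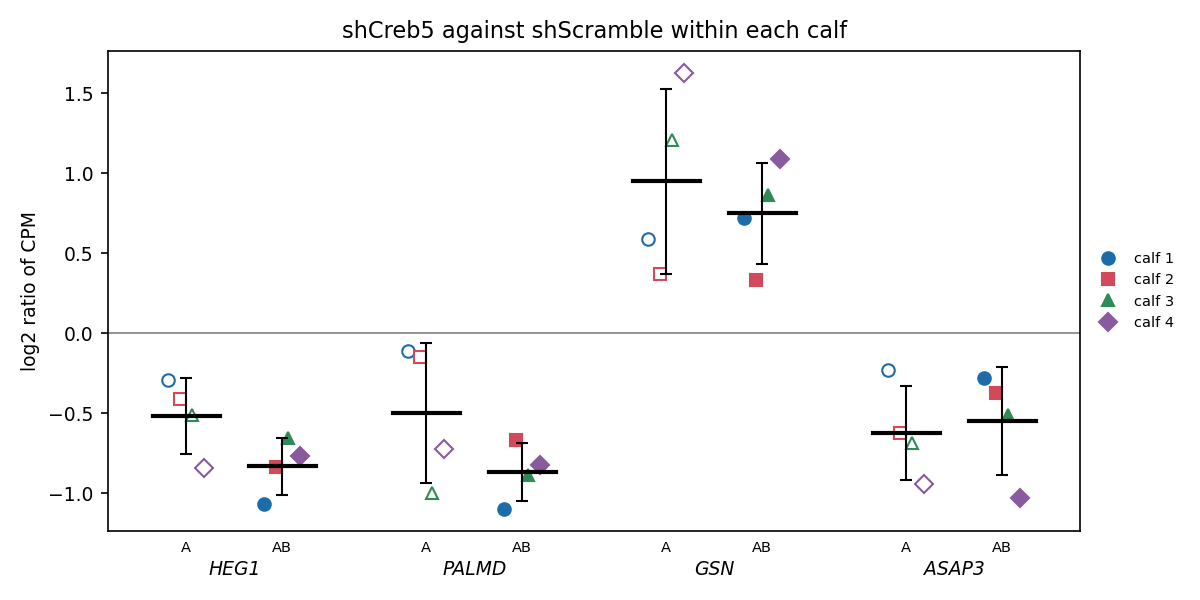
The log2 ratio of CPM, shCreb5 against shScramble, is plotted for each gene and calf (open symbols condition A, filled symbols condition AB), with the mean and SD over 4 calves. All 8 ratios of HEG1, PALMD and ASAP3 lie under 0 and all 8 of GSN above it, from 0.34 to 1.63.

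By DESeq2 with the calf as a covariate, 0.665% of 12172 genes had an adjusted p under 0.05 in condition A and 0.388% of 13907 in condition AB. The adjusted p values of the 4 genes themselves may have entered their choice, so they are not given. By edgeR's quasi-likelihood test no gene had an adjusted p under 0.05 in either condition, and 1143 of 12922 genes in A and 1077 of 12664 in AB had an unadjusted p under 0.05. The difference between the conditions (AB minus A) in the log2 ratio was -0.32 ± 0.37 (SD, n = 4 calves) for HEG1, -0.37 ± 0.49 for PALMD, -0.20 ± 0.30 for GSN and 0.07 ± 0.17 for ASAP3. It pointed one way in 3 of 4 calves for HEG1, PALMD and GSN and in 2 of 4 for ASAP3, and it was not tested because it is made of values that may have chosen the genes. For CREB5 it was -0.42 ± 0.28, lower in 4 of 4 calves. The part of this deeper knockdown in the differences between the conditions was not tested.

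TGFβ2 moved 3 of the 4 genes, and not in one direction. Its effect was tested on the sum of the shScramble and shCreb5 libraries of each calf, a contrast that does not use the difference between the shRNAs, with edgeR and the calf as a block. The adjusted p values of this response are independent of the choice of the genes only if it played no part in that choice. HEG1 fell by 1.28 in log2 units (SE 0.08, adjusted p = 0.000177, lower in 8 of 8 pairs of libraries). GSN fell by 1.15 (SE 0.15, adjusted p = 0.00166, lower in 8 of 8 pairs). PALMD rose by 1.66 (SE 0.21, adjusted p = 0.00166, higher in 8 of 8 pairs). ASAP3 differed by 0.08 (SE 0.09, adjusted p = 0.539, higher in 6 of 8 pairs), with a 95% interval from -0.13 to 0.28. Over all genes, 30.7% of 13632 passed the same test, 15.6% higher and 15.1% lower, and of 13372 genes 13.9% were lower and 14.8% higher in 8 of 8 pairs. The 8 libraries with TGFβ2 did not overlap the 8 without it for PALMD, as for 3.38% of all genes, and they overlapped for the other genes. In size, the log2 fold change of PALMD was larger than that of 96.9% of the genes tested, that of HEG1 than 94.5%, that of GSN than 93.4% and that of ASAP3 than 18.4%.

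Within each shRNA the responses to TGFβ2 are described without a test, since they share libraries with the comparison of the shRNAs. For HEG1 the log2 ratio was between -1.45 and -0.88 over the shScramble cells of 4 calves and between -1.66 and -1.37 over their shCreb5 cells. Averaged over the shRNAs, the 4 calves had -1.27, -1.27, -1.31 and -1.41, an SD of 0.06, although the level of HEG1 in calf 1 was 2.81 times that in calf 2 among the shScramble libraries of condition A. For GSN it lay between -1.28 and -0.56 in shScramble and between -1.82 and -0.89 in shCreb5 cells, with calf 4 lowest in the latter. For PALMD it was 2.87 in the shScramble cells of calf 1, whose level without TGFβ2 was the lowest, and 1.22 to 1.61 in those of the other calves. In shCreb5 cells PALMD had ratios from 0.71 in calf 2 to 1.88 in calf 1. For ASAP3 the ratios lay between -0.28 and 0.26 in shScramble and between -0.03 and 0.25 in shCreb5 cells. VWF, an endothelial marker, was also lower with TGFβ2 (log2 fold change -1.30, adjusted p = 0.00145 by edgeR), as was the macrophage marker CD68 (-1.42, adjusted p = 0.00458), while TEK had 0.41 (adjusted p = 0.104) and CD14 -0.14 (adjusted p = 0.587). Of 4 synovial fibroblast markers 3 had an identifier, and DPT (7.22, adjusted p = 2.73e-06) and THY1 (1.22, adjusted p = 0.000327) rose while CD55 (-1.84, adjusted p = 0.000265) fell. Between shCreb5 and shScramble, described without a test, THY1 had log2 fold changes of 1.08 in condition A and 0.72 in AB and was higher in 7 of 8 pairs, while DPT had -0.93 and -0.40 and was higher in 2 of 8. CD68 had 0.86 and 0.01, VWF 0.72 and -0.01, and PRG4 -0.63 and -0.66, with PRG4 higher in 1 of 8 pairs. Of the chondrocyte markers, PRG4 (1.96, adjusted p = 0.000543 by edgeR) and CHAD (2.31, adjusted p = 0.000556) rose with TGFβ2, while COL11A1 had 0.74 (adjusted p = 0.0554) and HAPLN1 0.13 (adjusted p = 0.526). KCNJ8, the 1 of 6 smooth muscle and pericyte markers with an identifier, had 0.61 (adjusted p = 0.0567). The part of such cells in the changes of HEG1, GSN and PALMD with TGFβ2, or in the differences of the 4 genes between the shRNAs, was not tested.

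**Figure D3:**
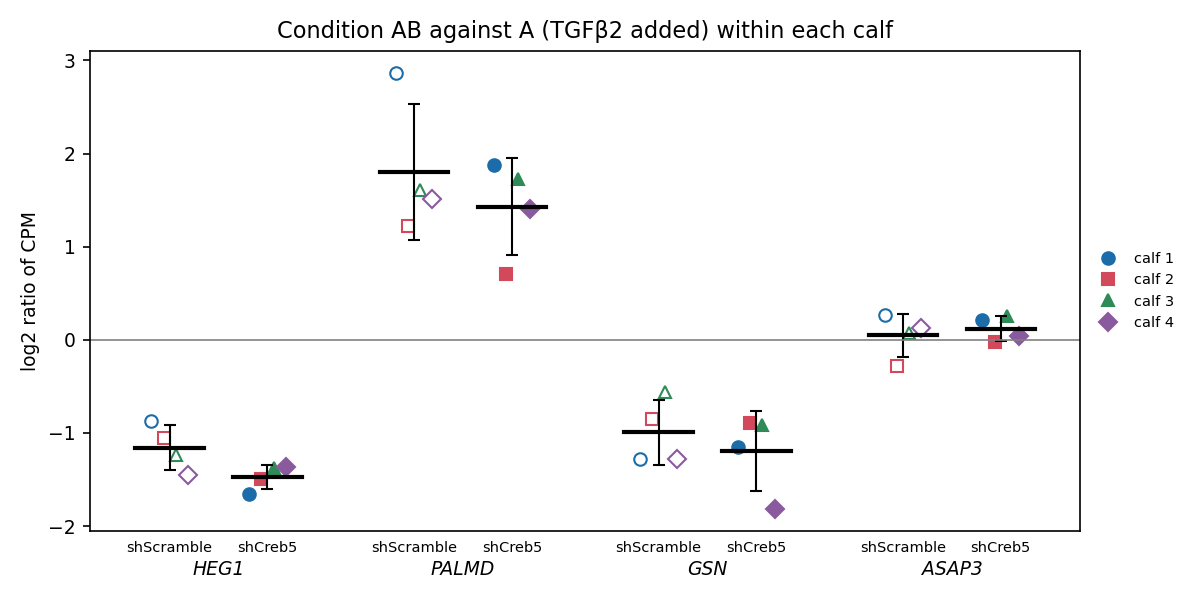
The log2 ratio of CPM, condition AB against A, is plotted for each gene and calf (open symbols shScramble, filled symbols shCreb5), with the mean and SD over 4 calves. HEG1 and GSN lie under 0 in 8 of 8 pairs and PALMD above 0 in 8 of 8, while the ratios of ASAP3 lie on both sides of 0, from -0.28 to 0.26.

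Set side by side, shCreb5 and TGFβ2 went the same way for HEG1 and opposite ways for PALMD and GSN. CREB5 itself was also lower with TGFβ2 (log2 fold change -0.54, SE 0.09, adjusted p = 0.0049 by edgeR), in 4 of 4 calves with each shRNA. The part of this in the responses of the 4 genes to TGFβ2 was not tested. From the shScramble library of condition A to the shCreb5 library of condition AB, HEG1 changed by -1.99 ± 0.15 on the log2 scale (SD, n = 4 calves), to 25.2% of the starting level. Over the same step PALMD differed by 0.93 ± 0.56, higher in 4 of 4 calves. GSN changed by -0.24 ± 0.40, lower in 3 of 4 calves and higher in calf 3, and ASAP3 by -0.50 ± 0.37, lower in 4 of 4 calves. For GSN the difference was smaller than its spread between calves.

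The variation of each gene over the 16 libraries was divided, as shares of the sum of squares of log2 CPM, into the calf, TGFβ2, the shRNA and the rest. For HEG1 these were 35.5%, 49.7%, 13% and 1.76%, for PALMD 11.4%, 67%, 11.9% and 9.63%, and for GSN 43%, 31.1%, 18.8% and 7.05%. ASAP3 was unlike the other three, with 19.9% for the calf, 1.25% for TGFβ2, 61.4% for the shRNA and 17.4% for the rest. The median over all 13372 genes was 46.3% for the calf, 11.7% for TGFβ2 and 2.38% for the shRNA. Of these genes 0 had a larger share for the shRNA than ASAP3, against 33 for CREB5, 703 for GSN, 1419 for HEG1 and 1636 for PALMD. A share is taken of a gene's own variation, so it does not rank the size of its difference. The log2 fold changes with shCreb5 in A and AB were -0.62 and -0.55 for ASAP3, and -0.54 and -0.96 for CREB5. The share for the shRNA uses the comparison taken to have chosen the genes and is a description.

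**Figure D4:**
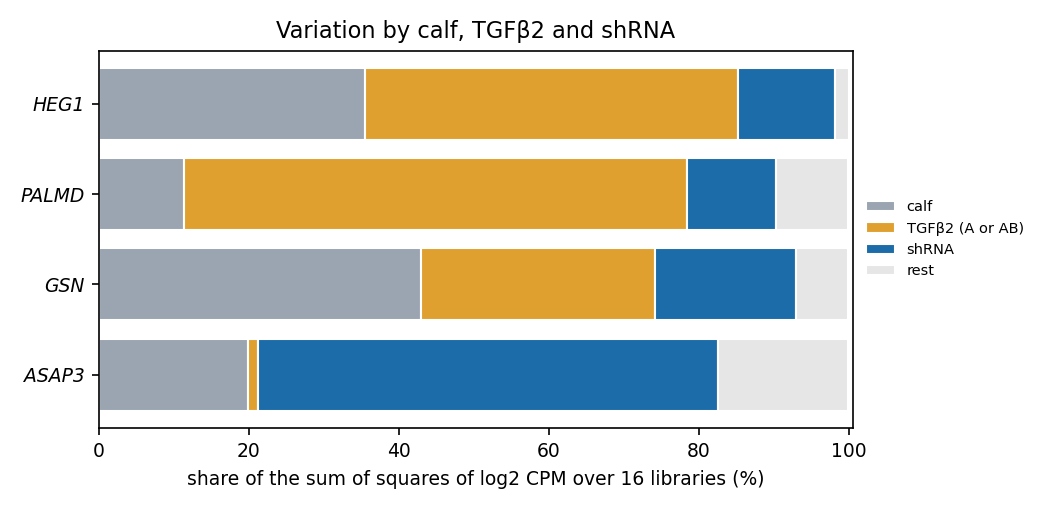
Bars divide the sum of squares of log2 CPM over 16 libraries, in percent, into calf, TGFβ2, shRNA and rest for each gene. The shRNA takes 61.4% for ASAP3 and 11.9% to 18.8% for the other genes, while TGFβ2 takes 67% for PALMD and 1.25% for ASAP3.

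Other genes of the same pathways were read from lists of symbols. Only genes near the top of the study's knockdown tables had an identifier, so the lists are partial, and these genes favour differences between the shRNAs. Against the 30.7% of all genes that passed for TGFβ2, the share was 60% in the first list below, 9.09% among actin-severing and capping genes, 57.1% among Arf and ArfGAP genes, 50% in the actomyosin list and 61.5% in the junction list. These shares rest on 5, 11, 7, 18 and 13 genes. The share among all genes with an identifier was not computed, so no excess or lack of responding genes is read from them. In the pathway of HEG1 and the CCM proteins, 5 of 21 further genes had one. With TGFβ2, 2 of these rose and 1 fell. The median log2 fold change of 0.56, against -0.01 over all genes, was the value of RAP1B (SE 0.66), a gene with very few counts. It is therefore not read as a shift of the pathway. KRIT1, CCM2 and PDCD10, the CCM proteins themselves, had no identifier. ADAMTS4, an aggrecan-cleaving protease, rose by 1.69 (adjusted p = 0.000897 by edgeR), from 1.49 to 4.73 CPM. THBS1, the matrix protein thrombospondin, rose by 1.23 (adjusted p = 0.0378, higher in 7 of 8 pairs). KLF6, a zinc finger transcription factor, fell by 0.42 (adjusted p = 0.0178). RAP1B, the small GTPase that acts with KRIT1, reached at most 1.75 CPM in any library and had no call (adjusted p = 0.556).

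GSN was read beside genes that sever or cap actin filaments or bind actin monomers. Of 25 further genes 11 had an identifier, of which 1 passed as higher with TGFβ2, 0 passed as lower (15.1% of all genes did) and 10 did not pass, with a median of 0.14. DSTN, which encodes the actin-depolymerizing factor destrin, rose by 0.78 (adjusted p = 0.00531 by edgeR, higher in 8 of 8 pairs). The relatives of GSN in the gelsolin superfamily, SCIN (0.30, adjusted p = 0.0678), CAPG (0.14, adjusted p = 0.243) and VILL (-0.41, adjusted p = 0.412), did not pass. Between the shRNAs, DSTN and WDR1, a cofactor of cofilin, were higher with shCreb5 in 8 of 8 pairs, like GSN. Of all genes 1.42% were, and genes with an identifier favour such differences, so no excess is read from this. The log2 fold changes were 0.27 in condition A and 0.44 in AB for DSTN, and 0.39 and 0.19 for WDR1. WDR1 was named after its values were seen.

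Of the paralemmin family no gene besides PALMD had an identifier. Of 27 further Arf and ArfGAP genes and their partners 7 had one, and with TGFβ2 1 rose and 3 fell, with a median of -0.38. ARFGAP3, an ArfGAP of the Golgi, rose by 0.42 (adjusted p = 0.0165 by edgeR). PXN, which encodes the focal adhesion scaffold paxillin, fell by 0.93 (adjusted p = 0.00117), AGAP3 by 0.38 (adjusted p = 0.0108) and the tyrosine kinase SRC by 0.42 (adjusted p = 0.0331). Among these 7 genes 0 were lower with shCreb5 in 8 of 8 pairs, while ASAP3 was. Of all genes only 1.64% were, so nothing about ASAP3 within its family is read from the 0.

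Of 31 genes of actomyosin and focal adhesions 18 had an identifier, and 6 rose and 3 fell with TGFβ2, with a median of 0.13. TAGLN, an actin-binding protein of smooth muscle and of fibroblasts under TGFβ, rose by 1.24 (adjusted p = 0.00362 by edgeR), from 2.41 to 5.97 CPM, and MYL6, a myosin light chain, by 0.61 (adjusted p = 0.0016). CALD1, which encodes caldesmon, fell by 1.45 (adjusted p = 0.000189), from 503 ± 121 CPM to 183 ± 37.2 (SD, 8 libraries each, 2 from each of 4 calves), and TLN1, which encodes talin, fell by 0.36 (adjusted p = 0.0173). ACTB (0.21, adjusted p = 0.22) and ACTG1 (-0.26, adjusted p = 0.277), the cytoplasmic actins, did not pass. Between the shRNAs 2 of these 18 genes were higher with shCreb5 in 8 of 8 pairs, where 1.42% of all genes were. They were CNN2, a calponin, with log2 fold changes of 0.40 in condition A and 0.28 in AB, and FLNC, a filamin, with 0.33 and 0.29, both named after their values were seen. Genes with an identifier favour such differences, so no excess is read from this count.

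Of 30 genes of cell junctions 13 had an identifier, and 3 rose and 5 fell with TGFβ2, with a median of -0.09. F11R, a junctional adhesion molecule, rose by 2.08 (adjusted p = 0.00106 by edgeR) from a low level of 0.59 CPM, and GJC1, a gap junction connexin, by 0.65 (adjusted p = 0.0104). CGN, the tight junction protein cingulin, fell by 2.01 (adjusted p = 0.000676), from 2.78 to 0.70 CPM. CDH11, a cadherin of mesenchymal cells, fell by 1.04 (adjusted p = 0.00195), from 211 ± 48.1 to 103 ± 23.4 CPM (SD over 8 libraries each, 2 from each calf). Between the shRNAs 1 gene of the list was lower with shCreb5 in 8 of 8 pairs, as HEG1 and 1.64% of all genes were. It was AFDN, which encodes the adherens junction protein afadin, with log2 fold changes of -0.33 in condition A and -0.41 in AB. JAM2 was higher in 8 of 8 pairs, as 1.42% of all genes were, with 0.56 and 0.46. Genes with an identifier favour such differences, so no excess is read from either. AFDN and JAM2 were named after their values were seen.

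**Figure D5:**
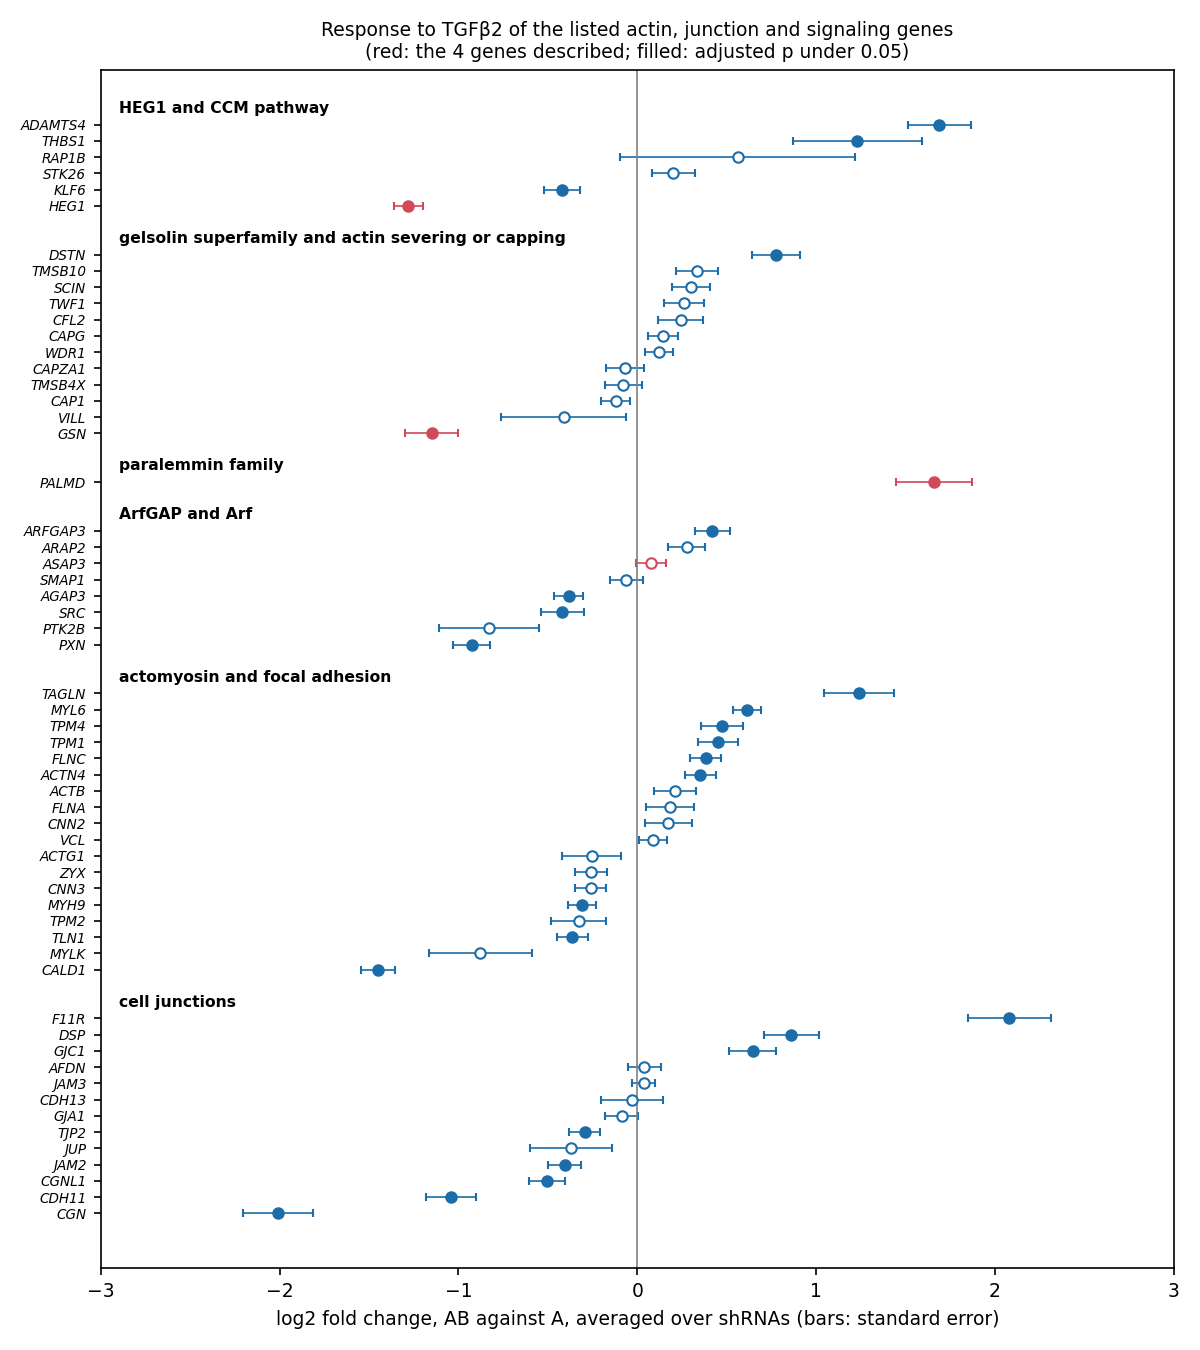
Points show the log2 fold change with TGFβ2 averaged over both shRNAs, with its standard error, for the listed genes with an identifier; red marks HEG1, GSN, PALMD and ASAP3, and filled points have an adjusted p under 0.05 by edgeR. GSN (-1.15) is the lowest of its list and HEG1 (-1.28) of its own, and ASAP3 (0.08) lies near 0. PALMD (1.66) is shown without relatives, since no other gene of its family had an identifier.

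The genes with the profile most like each member were sought by the Pearson correlation of log2 CPM over the 16 libraries, which share calves and conditions, so it is a description. Among 3131 genes with a symbol, NRP1 (r = 0.933), PLPPR4 (0.931) and TNFRSF19 (0.931) were most like HEG1. NRP1 encodes neuropilin, a receptor for semaphorins and VEGF, and with TGFβ2 its log2 fold change was -2.20. TNFAIP6 (r = 0.927), HAPLN3 (0.925) and MATN2 (0.918), which encode proteins of the extracellular matrix, were most like PALMD, and their log2 fold changes with TGFβ2 were 5.08, 1.50 and 4.16. S100A3 (r = 0.921), MDGA1 (0.91) and SRXN1 (0.908) were most like GSN. PDZD2 (r = 0.881), MMP3 (0.871), which encodes stromelysin, and MYBPH (0.868) were most like ASAP3, and their log2 fold changes in condition A between the shRNAs were -0.87, -1.06 and -0.50. Among the 4 genes themselves the correlation ran from -0.804 between PALMD and GSN to 0.584 between HEG1 and GSN.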

How the data were processed

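The 16 RNA-Seq libraries hold shScramble and shCreb5 cells of 4 calves in both conditions, with groups and calf numbers from the sample labels. For single-end reads, the authors ran Salmon 0.14.2 in bcbio-nextgen v1.2.4 (bovine genome UMD 3.1), summed its estimates to genes with tximport 1.14.2, and deposited estimated counts as whole numbers, not scaled for library size. Symbols came from the identifier columns of the study's knockdown tables, 1998 lines of each.

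Analyses used R 4.3.3, edgeR 4.0.16, limma 3.58.1 and DESeq2 1.42.0. Genes passing filterByExpr were TMM normalized and tested by edgeR quasi-likelihood, calf as block, with Benjamini-Hochberg adjustment over all genes tested and a threshold of 0.05. Log2 CPM used a prior count of 2. For the response to TGFβ2 averaged over shRNAs the 2 libraries of a calf and condition were summed. The calf numbers pair the samples. After subtraction of group means, these sums correlated across genes between A and AB of one calf by at least 0.59. Single libraries of one calf in different groups correlated by at least 0.13 (median 0.67). Those of different calves and groups reached at most 0.20 (median -0.23), so for single libraries the ranges overlapped. No library was a copy of another of its group (chi-square per degree of freedom of at least 73.96). The methods were tested on simulated data.

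The members, lists and tests were chosen with earlier results of these data known. Named genes were the 4 members, CREB5, the at most 2 most rising and 2 most falling called genes per list with one direction in 8 of 8 pairs, and the 3 most alike genes with a symbol per member; any further gene of a list or marker set was named after its values were seen. CPM are not scaled for transcript length, so levels were not compared between genes. Each SD is over calves, except where an SD over 8 libraries is named. Each standard error (SE) was derived from the log2 fold change and the test statistic of edgeR's quasi-likelihood fit. Gene positions were used, in the RefSeq table of assembly ARS-UCD2.0, only to see which genes overlap a member, and no sequence was used here.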

Additional observations from a re-analysis of the deposited data

Results flagged for a closer look

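In 45 sets of 4 values, a level or a log2 ratio of HEG1, PALMD, GSN, ASAP3 or CREB5 over the calves, 1 value stood far from the other 3 in 1 set, where chance gives about 2.25. It was the level of GSN in the shScramble libraries of condition AB, where calf 1 was high, at 9.82 on the log2 CPM scale against 8.54 in the nearest calf, with 0.865 of the whole range between them. Calf 1 had the highest GSN level in the other 3 groups as well.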

How the results depend on the processing

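For the response to TGFβ2 averaged over both shRNAs, HEG1, GSN and PALMD kept their direction under 12 alternatives each: DESeq2, RLE normalization, no filter, no replicate block, limma-voom, 16 libraries not summed with the calf or with each calf and shRNA pair as block, library size outside the 10 most abundant genes, and each calf left out in turn. With no replicate block the log2 fold change of HEG1 was -1.27 (adjusted p = 0.125) and that of GSN -1.21 (adjusted p = 0.21), so both lost their call, and that of PALMD passed with 0.0284. Each of the 3 passed under all other alternatives. ASAP3 passed under none (adjusted p from 0.216 to 0.873) and had a log2 fold change of -0.0235 with library size taken outside the 10 most abundant genes. The number of genes called was 4189, but 347 with no replicate block, and 2556 to 3576 with 1 calf left out, the fewest without calf 3 and 2683 without calf 4. With 1 calf left out, the log2 fold change of ASAP3 in shScramble cells lay between -0.0259 and 0.165, below 0 without calf 1. All differences between the shRNAs kept their direction under the 8 alternatives run for each, and with 1 calf left out that of PALMD in condition A lay between -0.63 and -0.34. With 4 calves, a difference like that of ASAP3 with TGFβ2 is bounded by its interval, not shown to be 0.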
